A study of Mus musculus with 7 samples.

Results

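Transcripts of the mitotic machinery were followed in mouse bone marrow cells on 7 Affymetrix Mouse430_2 arrays. The set consists of 47 genes of mitotic entry, the spindle checkpoint, kinetochores, condensin, the spindle and cytokinesis. It was chosen by gene symbol with earlier results of these data known, so its shares beside those of all genes are not an independent test. A gene counted as measured where at least 1 probe set of the deposited table was annotated to that symbol alone. By this rule 45 of the 47 genes were measured, with 81 probe sets, among 8378 genes measured in all. Ccnb1 and Kif15 were the 2 without a probe set in these values, and 26 of the 45 had more than 1 probe set, whose mean was taken as the value of the gene.

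Mitosis begins when cyclin-dependent kinase 1 and its cyclins drive chromosome condensation and spindle assembly. Kinetochores then attach chromosomes to spindle microtubules, the spindle checkpoint holds the anaphase-promoting complex inactive until attachment is complete, and the cell divides by cytokinesis. Most of these genes are transcribed late in the cell cycle, so their transcripts are commonly used to mark dividing cells. In bone marrow the dividing cells are chiefly progenitors, erythroblasts, promyelocytes and myelocytes, and B-cell precursors, whereas mature neutrophils no longer divide.

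The arrays held RNA of marrow from transplanted recipients. On 3 arrays the donor marrow carried a mock control transgene and on 2 an ABCG2 transgene (a drug efflux pump), and unsorted marrow cells were used for both. The other 2 arrays held marrow cells with the EZH2-Mt transgene (EZH2 methylates histone H3 as part of a Polycomb complex) from recipients described as MDS-like, sorted into a GFP-negative and a GFP-positive fraction, with 1 array each. The sources used here do not give the meaning of Mt, the strain or age of the mice, the promoter of the transgenes, the share of recipient cells left in the marrow, or whether both fractions came from 1 mouse. The mice are not numbered, so separate mice per array are not certain. P-values therefore measure the spread between these arrays, whose number limits the precision. Only the ABCG2 titles hold the tag ser2, whose meaning is not given, and anything it marks cannot be told apart from the transgene.

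The deposited values are logarithms, taken as log2, and each probe set is centred so that its median over the 7 arrays is 0. They therefore hold no absolute level, and only differences between arrays of the same gene can be read. Every probe set kept by the authors was called Present or Marginal on all arrays, so a probe set called Absent on any array is not among these values. The SD over all genes was 0.30 to 0.39 on the mock arrays, 0.38 and 0.44 on the GFP-negative and GFP-positive arrays, and 1.12 and 1.21 on the ABCG2 arrays. Marker genes of neutrophils, monocytes, red cells, B cells, T and NK cells and progenitors were present in the values, but defining markers such as Gata1, Pax5, Cd3e and Cd34 were not among the values used here.

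Most of the 45 mitotic genes read lower in ABCG2 marrow than in mock marrow. Genes of 6 further mitotic and cell cycle lists, given below, were divided between both directions. Of the 45 genes, 26 fell and 1 rose (limma, Benjamini-Hochberg adjusted p under 0.05 over all genes; n = 2 against 3 arrays), and 43 had a negative difference. In the same fit 26.2% of all genes fell and 35.6% rose, together 61.8%, beside 27 of the 45. The median difference of the mitotic genes was -0.73 log2, ranging from -2.60 to 0.56, beside a median of 0.15 over all genes. A fall by at least 2-fold that passed the test was found in 13 of the 45 genes, against 14.3% of all genes. Both ABCG2 arrays lay below all 3 mock arrays in 31 of the 45 genes, against 32.7% of all genes, and above them in 2, against 44.2%. In unsorted marrow, fewer cells of a type and less RNA per cell cannot be told apart.

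**Figure D1:**
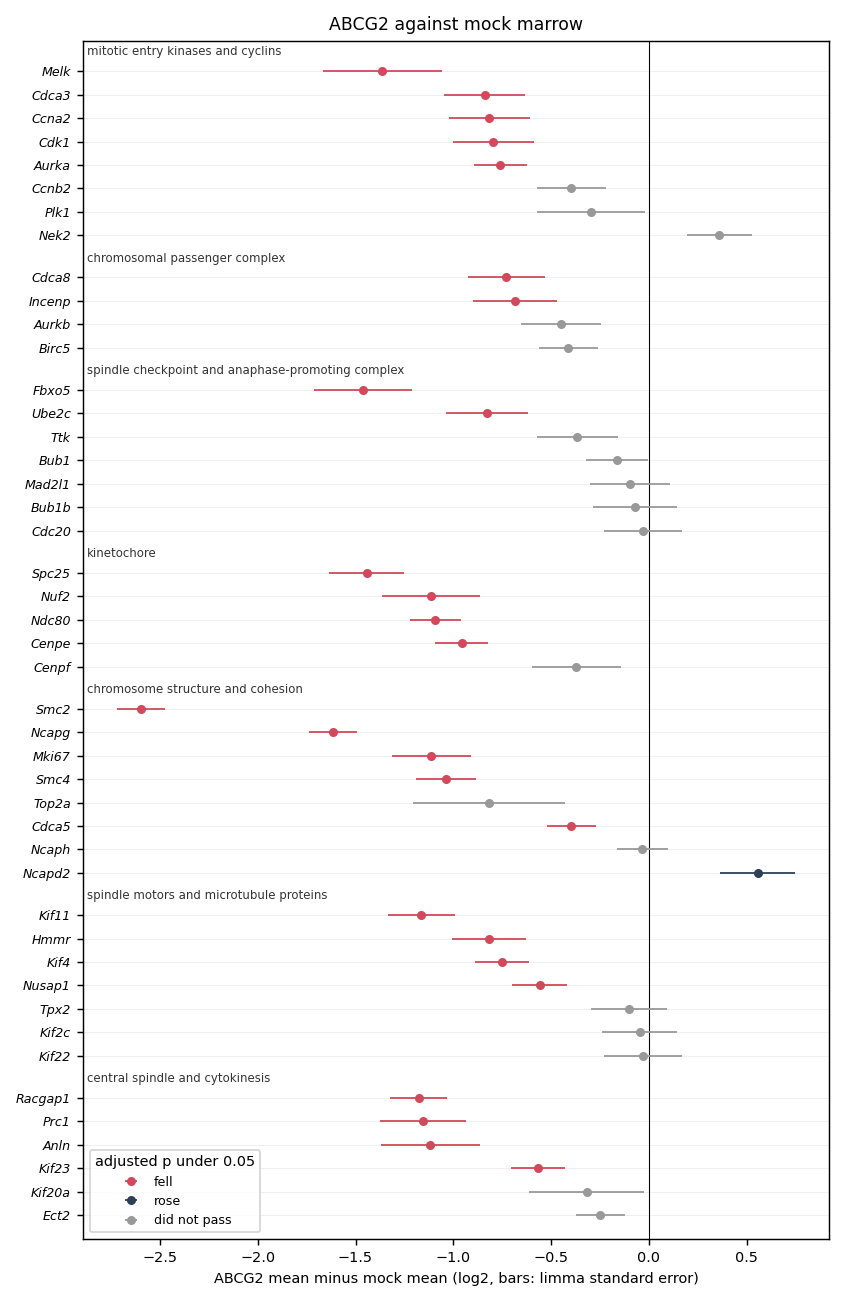
Difference between the mean of 2 ABCG2 arrays and the mean of 3 mock arrays for each of the 45 measured genes, grouped by role, in log2. Points are limma estimates and bars their standard errors. The 26 genes that fell are red, Ncapd2, which rose, is dark blue, and the 18 that did not pass are grey.

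How many genes fell depended on how the arrays were scaled. Quantile normalization gives all arrays 1 common distribution of values. After it, 10 of the 45 genes fell (22.2%), beside 16.9% of all genes, and the median was -0.48. The 10 were all among the 26: Melk, Ndc80, Cenpe, Smc2, Smc4, Ncapg, Mki67, Kif11, Prc1 and Racgap1. When each of the 5 mock and ABCG2 arrays was left out in turn, 19 of the 26 falls kept their call every time. Leaving out ABCG2 replicate 1 had the largest effect, with fewer falls and a median of -0.53. How often falls among all genes kept their call was not counted, so this stability cannot be called particular to the mitotic genes.

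The promoters of these genes share short sequence elements. The cell cycle genes homology region (CHR) is bound by the MuvB complexes that repress or activate late cell cycle genes, and the CCAAT box is bound by the factor NF-Y. RefSeq promoter windows of GRCm38.p6, from 250 bases before to 50 bases after a start site, matched 39 of the 45 genes by symbol and gave 41 windows, of which Ect2 and Prc1 hold 2 overlapping ones each. A CHR match (TTTGAA or TTCGAA, with TTCAAA as the opposite strand) was present in 33 of the 41 windows (80.5%), against 14.3% of the 8877 windows of all measured genes. A CCAAT match (CCAAT, or ATTGG on the opposite strand) was present in 31 windows (75.6%), against 38.1%, and both were present in 29 (70.7%), against 5.88%. In 30 of the 33 windows with a CHR match, a match began within 50 bases of the start site. The same share was not counted for the windows of all measured genes. In 1 window a CHR and a CCAAT match overlapped.

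Matches were found both in genes that fell and in genes that did not. A CHR match was present in 20 of 24 windows of genes that fell (83.3%) and in 13 of 17 windows of the others (76.5%). Outside the set, 1132 measured genes had a CHR match, of which 24.4% fell and 35.5% rose in ABCG2 marrow, and of 5758 genes with a window and no match 25.8% fell and 36.3% rose. The windows of 6 genes are shown to let the elements be compared between genes that fell (Smc2, Spc25, Fbxo5 and Mki67), a gene near 0 (Cdc20) and the gene that rose (Ncapd2). They were chosen after the values were seen. Capitals mark the CHR and CCAAT matches, and each window is written 5′ to 3′ on the strand of the gene. The windows lie at chr4:52438971-52439270, plus strand (Smc2), chr2:69206164-69206463, minus strand (Spc25), chr10:5805416-5805715, minus strand (Fbxo5), chr7:135716330-135716629, minus strand (Mki67), chr4:118437294-118437593, minus strand (Cdc20) and chr6:125191537-125191836, minus strand (Ncapd2).
Smc2: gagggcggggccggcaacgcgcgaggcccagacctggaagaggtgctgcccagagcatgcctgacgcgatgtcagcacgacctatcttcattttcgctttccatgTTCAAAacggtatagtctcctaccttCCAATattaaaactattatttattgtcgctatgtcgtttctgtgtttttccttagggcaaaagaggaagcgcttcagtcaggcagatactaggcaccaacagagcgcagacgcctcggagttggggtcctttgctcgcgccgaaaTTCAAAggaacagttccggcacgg
Spc25: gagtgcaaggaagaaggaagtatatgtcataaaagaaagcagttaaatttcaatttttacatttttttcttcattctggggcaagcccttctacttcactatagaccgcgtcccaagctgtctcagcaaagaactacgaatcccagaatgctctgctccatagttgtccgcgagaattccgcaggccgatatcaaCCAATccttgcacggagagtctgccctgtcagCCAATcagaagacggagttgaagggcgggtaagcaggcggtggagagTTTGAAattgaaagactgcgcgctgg
Fbxo5: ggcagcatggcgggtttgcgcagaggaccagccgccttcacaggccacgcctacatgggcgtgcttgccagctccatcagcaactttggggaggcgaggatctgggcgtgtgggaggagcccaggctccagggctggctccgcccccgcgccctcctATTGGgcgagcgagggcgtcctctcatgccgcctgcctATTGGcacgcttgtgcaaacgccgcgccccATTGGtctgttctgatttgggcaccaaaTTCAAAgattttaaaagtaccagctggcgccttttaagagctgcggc
Mki67: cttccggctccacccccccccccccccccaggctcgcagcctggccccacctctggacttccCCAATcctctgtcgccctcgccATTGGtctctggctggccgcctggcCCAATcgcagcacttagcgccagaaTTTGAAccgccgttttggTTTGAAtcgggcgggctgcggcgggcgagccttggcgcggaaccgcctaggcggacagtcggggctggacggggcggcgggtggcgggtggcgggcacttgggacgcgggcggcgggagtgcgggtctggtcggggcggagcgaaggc
Cdc20: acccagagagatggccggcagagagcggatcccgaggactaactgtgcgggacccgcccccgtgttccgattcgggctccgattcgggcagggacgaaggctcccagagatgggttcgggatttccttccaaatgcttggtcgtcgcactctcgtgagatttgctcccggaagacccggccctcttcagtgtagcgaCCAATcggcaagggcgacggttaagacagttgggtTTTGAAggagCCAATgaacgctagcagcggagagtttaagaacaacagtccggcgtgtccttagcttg
Ncapd2: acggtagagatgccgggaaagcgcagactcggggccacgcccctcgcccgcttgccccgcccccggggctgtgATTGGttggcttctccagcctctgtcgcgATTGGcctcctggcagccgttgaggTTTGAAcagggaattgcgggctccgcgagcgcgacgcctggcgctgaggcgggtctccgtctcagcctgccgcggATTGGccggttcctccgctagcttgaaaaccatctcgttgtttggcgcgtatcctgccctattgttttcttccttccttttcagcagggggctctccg
The start site lies after base 250 of each window. Each of the 6 holds at least 1 CHR and 1 CCAAT match, including the gene that rose and the gene near 0.

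Chromosome structure genes held both the deepest fall and the only rise. Of 8 measured, 5 fell and 1 rose, beside 26.2% and 35.6% of all genes. The subunits of condensin I, the ring complex that compacts mitotic chromosomes, received different calls. Smc2, a core ATPase shared by both condensins, read 0.49, 0.44 and 0.44 on the mock arrays, -2.17 and -2.10 on the ABCG2 arrays, 0.10 in GFP-negative and 0.20 in GFP-positive cells. Both ABCG2 arrays were far below every other array, with a difference of -2.60 ± 0.12 log2 (adjusted p = 1.89e-05). Its 4 probe sets differed by -3.89 to -1.58. The mock arrays were the highest in the mean of these probe sets but not in each. In GFP-negative and GFP-positive cells 1 probe set read 0.59 and 1.12, against -0.02 to 0.06 on mock. Another read 0 and -0.57, against 1.04 to 1.06. Smc4, the partner ATPase, read 0.15, 0.26 and 0.30 on the mock arrays, -0.98 and -0.63 on the ABCG2 arrays, -0.07 in GFP-negative and 0.10 in GFP-positive cells. Again the ABCG2 arrays stood lowest and did not overlap with the mock arrays (-1.04 ± 0.15, adjusted p = 0.00149). Its 3 probe sets differed from -1.66 to -0.18.

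The condensin I regulatory subunits differed in their calls, within the limits given for each. Ncapg read 0.48, 0.46 and 0.45 on the mock arrays, -1.19 and -1.11 on the ABCG2 arrays, 0.16 in GFP-negative and 0.26 in GFP-positive cells, so that the ABCG2 arrays lay clearly below the rest (-1.62 ± 0.12, adjusted p = 9.3e-05). The size rests on 1 of its 2 probe sets, which differed by -2.79 and -0.44. In GFP-negative and GFP-positive cells the first read -0.03 and 0, below its mock values of 0.90 to 1.06. The second read 0.35 and 0.53, above its mock values of -0.13 to 0.03. Ncaph, the subunit that closes the ring, read -0.20, -0.21 and -0.23 on the mock arrays, -0.34 and -0.15 on the ABCG2 arrays, 0.14 in GFP-negative and 0.30 in GFP-positive cells. The ABCG2 arrays lay on either side of the mock arrays, and the difference of -0.03 ± 0.13 did not pass (adjusted p = 0.839). Its 2 probe sets stood at -0.50 and 0.43. The first, that of largest range, passed when taken alone, and the second was not tested alone. That second probe set read -0.32, -0.51 and -0.46 on the mock arrays and 0.01 and 0 on the ABCG2 arrays. Ncapd2 read -0.11, -0.17 and -0.55 on the mock arrays and 0.09 and 0.46 on the ABCG2 arrays, and it was the gene that rose (0.56 ± 0.19, adjusted p = 0.0432). That call was lost without any 1 of mock replicates 1, 2 and 3 or ABCG2 replicate 2, and with quantile normalization, array medians set to 0, array weights, the probe set of largest range and the replicate block. Both of its probe sets were higher in ABCG2, by 0.56 and 0.55.

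Mki67, which encodes the Ki-67 protein that coats mitotic chromosomes and marks cycling cells, read -0.05, 0 and 0.14 on the mock arrays, -1.39 and -0.78 on the ABCG2 arrays, 0.37 in GFP-negative and 1.21 in GFP-positive cells. The ABCG2 arrays were lowest and the GFP-positive array stood highest, and ABCG2 against mock gave -1.11 ± 0.20 (adjusted p = 0.00338). Cdca5, which encodes the cohesin protector sororin, fell as well (-0.40 ± 0.13, adjusted p = 0.0322), a call lost without ABCG2 replicate 1 or 2 or mock replicate 2 or 3. Top2a, the topoisomerase that untangles sister chromatids, read -0.06, 0.0021 and 0.13 on the mock arrays, -1.52 and -0.07 on the ABCG2 arrays, 0.31 in GFP-negative and 0.80 in GFP-positive cells. On the ABCG2 arrays 1 of its 2 probe sets read -2.10 and 0.34. The other read -0.94 and -0.47, both below its mock values of 0 to 0.26. In their mean the ABCG2 arrays disagreed, replicate 2 lying just below the mock range and replicate 1 far below, and the difference of -0.82 ± 0.39 did not pass (adjusted p = 0.11). Without ABCG2 replicate 2 it passed.

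**Figure D2:**
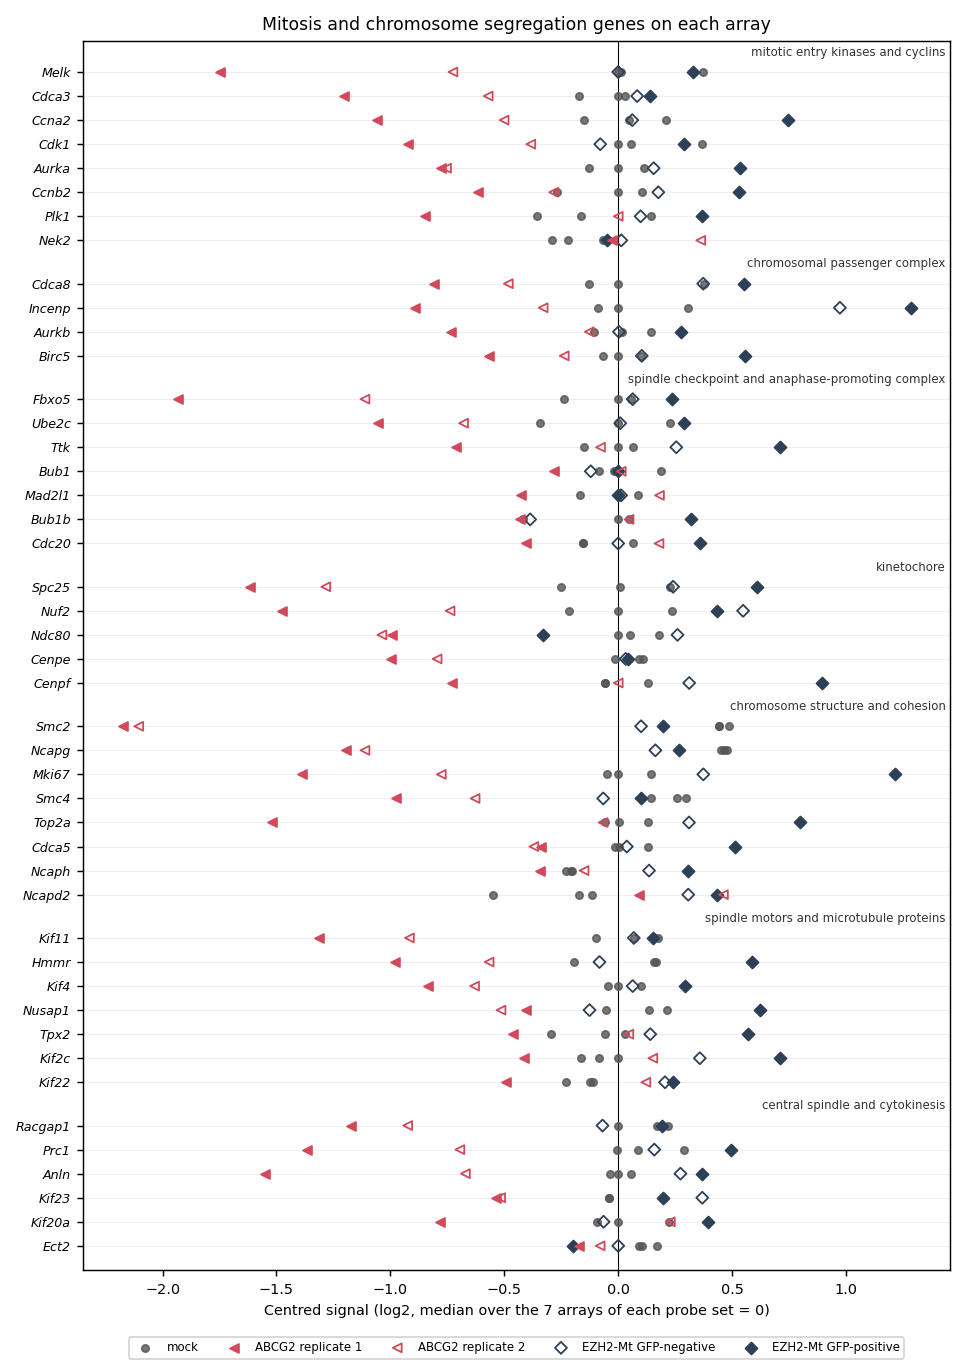
Centred log2 signal of the 45 measured genes on each of the 7 arrays, grouped by role. Grey circles are the 3 mock arrays, red triangles the ABCG2 arrays (filled, replicate 1) and diamonds the EZH2-Mt fractions (filled, GFP-positive). The ABCG2 arrays lie to the left of the mock arrays in most rows, while Ncapd2 and Nek2 are to the right.

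Kinetochore genes fell in 4 of 5 cases, beside 26.2% of all genes, with a median of -1.09. The NDC80 complex, which holds the microtubule end, had all 3 of its subunits in the set among the falls. Spc25 read 0.01, -0.25 and 0.23 on the mock arrays, -1.61 and -1.28 on the ABCG2 arrays, 0.24 in GFP-negative and 0.61 in GFP-positive cells. Nuf2 read 0, -0.22 and 0.24 on the mock arrays, -1.48 and -0.74 on the ABCG2 arrays, 0.55 in GFP-negative and 0.43 in GFP-positive cells. For Ndc80 itself the values were 0.18, 0 and 0.05 on the mock arrays, -0.99 and -1.04 on the ABCG2 arrays, 0.26 in GFP-negative and -0.33 in GFP-positive cells. The ABCG2 arrays lay below all mock arrays in each of the 3 subunits, and in Ndc80 the GFP-positive array was below the mock arrays too. The differences were -1.44 ± 0.19 for Spc25 (adjusted p = 0.000909), -1.11 ± 0.25 for Nuf2 (adjusted p = 0.00824) and -1.09 ± 0.13 for Ndc80 (adjusted p = 0.000592). With quantile normalization Spc25 (-0.80) and Nuf2 (-0.66) no longer passed.

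Cenpe, a kinesin that carries chromosomes to the spindle equator, read -0.02, 0.11 and 0.09 on the mock arrays, -0.997 and -0.80 on the ABCG2 arrays, 0.03 in GFP-negative and 0.04 in GFP-positive cells. It fell by 0.96 ± 0.13 (adjusted p = 0.00119), with the 2 ABCG2 arrays alone at the low end of this mean. Its 2 probe sets differed by -1.44 and -0.475. In GFP-positive cells the first read -0.43, below its mock values, and the second 0.52, above them. Cenpf, a large protein of the outer kinetochore, read -0.06, -0.06 and 0.13 on the mock arrays, -0.73 and 0 on the ABCG2 arrays, 0.31 in GFP-negative and 0.90 in GFP-positive cells. Replicate 1 of ABCG2 lay below the mock arrays and replicate 2 within their range, and the difference of -0.37 ± 0.23 did not pass (adjusted p = 0.195), although it did without ABCG2 replicate 2 (-0.74).

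Among genes of mitotic entry, 5 of 8 measured fell, beside 26.2% of all genes. Melk, a kinase expressed in dividing cells, read 0.01, -0.0030 and 0.37 on the mock arrays, -1.75 and -0.73 on the ABCG2 arrays, 0 in GFP-negative and 0.33 in GFP-positive cells. The ABCG2 arrays were lowest but 1.02 apart, and the difference was -1.36 ± 0.30 (adjusted p = 0.00808). Cdca3, which encodes a trigger of mitotic entry, read -0.17, 0.03 and 0 on the mock arrays, -1.20 and -0.57 on the ABCG2 arrays, 0.08 in GFP-negative and 0.14 in GFP-positive cells. No mock array reached down to the ABCG2 arrays (-0.84 ± 0.21, adjusted p = 0.0122), although the call was lost with quantile normalization (-0.48).

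The cyclin A2 gene Ccna2 read -0.15, 0.05 and 0.21 on the mock arrays, -1.06 and -0.50 on the ABCG2 arrays, 0.06 in GFP-negative and 0.75 in GFP-positive cells. Cdk1, the central mitotic kinase, read 0, 0.06 and 0.37 on the mock arrays, -0.92 and -0.38 on the ABCG2 arrays, -0.08 in GFP-negative and 0.29 in GFP-positive cells. In both genes the ABCG2 arrays lay below all mock arrays, with differences of -0.82 ± 0.21 (adjusted p = 0.0135) and -0.79 ± 0.21 (adjusted p = 0.015). Both calls were lost without ABCG2 replicate 1 (-0.54 and -0.53) and with quantile normalization. Aurka, the centrosomal Aurora kinase, had ABCG2 values of -0.78 and -0.75 and fell by 0.76 ± 0.14 (adjusted p = 0.00311), a call lost with quantile normalization.

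Plk1, the Polo kinase that acts from entry to cytokinesis, read -0.36, -0.16 and 0.15 on the mock arrays, -0.85 and 0 on the ABCG2 arrays, 0.10 in GFP-negative and 0.37 in GFP-positive cells. Replicate 1 of ABCG2 was lowest while replicate 2 lay within the mock range, and the difference of -0.30 ± 0.28 did not pass (adjusted p = 0.38). It turned to 0.12 without ABCG2 replicate 1 and to -0.72, past the threshold, without replicate 2. The cyclin B2 gene Ccnb2 (-0.40 ± 0.18) and the centrosome kinase gene Nek2 (0.36 ± 0.17) did not pass either, and Nek2 was the only gene besides Ncapd2 with a positive difference. Nek2 rose without ABCG2 replicate 1 and with the probe set of largest range, and Ccnb2 fell with array medians set to 0.

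Cytokinesis genes fell in 4 of 6 cases, beside 26.2% of all genes. Racgap1, the GTPase-activating subunit of the centralspindlin complex, read 0, 0.22 and 0.17 on the mock arrays, -1.17 and -0.92 on the ABCG2 arrays, -0.07 in GFP-negative and 0.19 in GFP-positive cells. Prc1, which bundles the antiparallel microtubules of the central spindle, read -0.01, 0.09 and 0.29 on the mock arrays, -1.36 and -0.70 on the ABCG2 arrays, 0.16 in GFP-negative and 0.50 in GFP-positive cells. Anln, encoding the contractile ring scaffold anillin, read 0.06, -0.04 and 0 on the mock arrays, -1.55 and -0.67 on the ABCG2 arrays, 0.27 in GFP-negative and 0.37 in GFP-positive cells. The ABCG2 arrays were below all mock arrays in each of these, with differences of -1.18 ± 0.15 (adjusted p = 0.000745), -1.15 ± 0.22 (adjusted p = 0.0043) and -1.12 ± 0.25 (adjusted p = 0.00862). The Anln call was lost with quantile normalization (-0.64).

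Kif23, the motor of centralspindlin, read 0.20, -0.04 and -0.04 on the mock arrays, -0.54 and -0.52 on the ABCG2 arrays, 0.37 in GFP-negative and 0.19 in GFP-positive cells. Its ABCG2 arrays were almost equal and below the mock range (-0.57 ± 0.14, adjusted p = 0.0121), a call lost with quantile normalization (-0.37). Ect2, the exchange factor that activates RhoA at the equator, read 0.10, 0.17 and 0.09 on the mock arrays, -0.17 and -0.08 on the ABCG2 arrays, 0 in GFP-negative and -0.20 in GFP-positive cells. Its ABCG2 arrays were below the mock arrays by a small margin, with the GFP-positive array lower still, and the difference of -0.25 ± 0.12 did not pass (adjusted p = 0.125). Kif20a did not pass (-0.32 ± 0.29), its ABCG2 arrays lying at -0.78 and 0.23, and it passed without replicate 2.

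Spindle motors and microtubule proteins fell in 4 of 7 cases, beside 26.2% of all genes. Kif11, the tetrameric motor that pushes spindle poles apart, read -0.10, 0.17 and 0.07 on the mock arrays, -1.31 and -0.92 on the ABCG2 arrays, 0.07 in GFP-negative and 0.15 in GFP-positive cells. The ABCG2 arrays were alone at the low end (-1.16 ± 0.17, adjusted p = 0.0014), and its 3 probe sets differed by -1.26 to -1.04. The chromokinesin gene Kif4 read -0.04, 0.10 and 0 on the mock arrays, -0.84 and -0.63 on the ABCG2 arrays, 0.06 in GFP-negative and 0.29 in GFP-positive cells. It fell by 0.75 ± 0.14 (adjusted p = 0.00337).

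Hmmr, which encodes a hyaluronan receptor that also binds spindle microtubules, read 0.16, -0.19 and 0.16 on the mock arrays, -0.98 and -0.57 on the ABCG2 arrays, -0.08 in GFP-negative and 0.59 in GFP-positive cells. The mean over its 5 probe sets fell (-0.82 ± 0.19, adjusted p = 0.00952), but 1 probe set was higher in ABCG2 by 0.70 while the others differed by -1.95 to -0.79, and the call was lost with the replicate block. Nusap1, a microtubule-stabilizing protein, read 0.14, -0.05 and 0.21 on the mock arrays, -0.40 and -0.51 on the ABCG2 arrays, -0.13 in GFP-negative and 0.62 in GFP-positive cells. Its ABCG2 arrays were lowest (-0.56 ± 0.14, adjusted p = 0.0134), a call lost without ABCG2 replicate 2 (-0.50), with the replicate block and with the probe set of largest range (-0.38). The calls of Kif4, Hmmr and Nusap1 were lost with quantile normalization.

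Kif22, a motor on chromosome arms, read -0.23, -0.11 and -0.13 on the mock arrays, -0.49 and 0.12 on the ABCG2 arrays, 0.21 in GFP-negative and 0.24 in GFP-positive cells. The ABCG2 arrays lay on either side of the mock arrays, and the difference of -0.03 ± 0.20 did not pass (adjusted p = 0.901). Its 3 probe sets disagreed in sign, from -0.57 to 0.55. Tpx2, which activates Aurora A on the spindle (-0.10 ± 0.20), and Kif2c, a microtubule depolymerase (-0.05 ± 0.19), did not pass.

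The chromosomal passenger complex, which corrects faulty attachments and directs cytokinesis, had 2 falls in 4 genes, beside 26.2% of all genes. Cdca8, encoding borealin, read -0.13, 0 and 0.38 on the mock arrays, -0.81 and -0.48 on the ABCG2 arrays, 0.37 in GFP-negative and 0.55 in GFP-positive cells. Its ABCG2 arrays were below the mock arrays (-0.73 ± 0.20, adjusted p = 0.0175). Incenp, the scaffold of the complex, read 0, -0.09 and 0.31 on the mock arrays, -0.89 and -0.33 on the ABCG2 arrays, 0.97 in GFP-negative and 1.28 in GFP-positive cells. Its ABCG2 arrays were lowest (-0.68 ± 0.21, adjusted p = 0.0297) and its EZH2-Mt arrays highest.

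Both calls were lost with quantile normalization and without ABCG2 replicate 1 (-0.57 for Cdca8 and -0.40 for Incenp), and that of Incenp also without mock replicate 1 or 3. Birc5, which encodes survivin, read -0.07, 0 and 0.10 on the mock arrays, -0.57 and -0.24 on the ABCG2 arrays, 0.10 in GFP-negative and 0.56 in GFP-positive cells. Although both ABCG2 arrays were below the mock arrays, the difference of -0.41 ± 0.15 did not pass (adjusted p = 0.0517), and it did with array medians set to 0 and without ABCG2 replicate 2. Aurkb, the kinase of the complex, did not pass (-0.45 ± 0.20, adjusted p = 0.0973), but did without ABCG2 replicate 2.

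Spindle checkpoint and anaphase-promoting complex genes fell in 2 of 7 cases (28.6%), near the 26.2% of all genes. Their median was -0.16, beside 0.15 over all genes. Fbxo5, which encodes the inhibitor Emi1 that restrains the anaphase-promoting complex before mitosis, read 0.06, -0.24 and 0 on the mock arrays, -1.93 and -1.11 on the ABCG2 arrays, 0.06 in GFP-negative and 0.24 in GFP-positive cells. The ABCG2 arrays were far below all others (-1.46 ± 0.25, adjusted p = 0.00274). Ube2c, the ubiquitin-conjugating enzyme of that complex, read -0.34, 0 and 0.23 on the mock arrays, -1.05 and -0.68 on the ABCG2 arrays, 0.01 in GFP-negative and 0.29 in GFP-positive cells. It fell by 0.83 ± 0.21 (adjusted p = 0.0136), a call lost without ABCG2 replicate 1 (-0.64). With quantile normalization neither call remained.

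The other 5 genes of this role did not pass. Cdc20, the activator that the checkpoint holds back, read -0.16, -0.16 and 0.07 on the mock arrays, -0.40 and 0.18 on the ABCG2 arrays, 0 in GFP-negative and 0.36 in GFP-positive cells. The 2 ABCG2 arrays lay on opposite sides of all mock arrays, so the difference was -0.03 ± 0.20 (adjusted p = 0.904). Bub1b, which encodes the checkpoint protein BubR1, read -0.42, 0.05 and 0 on the mock arrays, -0.43 and 0.05 on the ABCG2 arrays, -0.39 in GFP-negative and 0.32 in GFP-positive cells. Its ABCG2 values spanned about the same range as the mock values (-0.07 ± 0.21, adjusted p = 0.794). The checkpoint genes Mad2l1 (-0.10 ± 0.21), Bub1 (-0.16 ± 0.16) and Ttk (-0.37 ± 0.21) did not pass, and Ttk did without ABCG2 replicate 2.

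The ABCG2 arrays differed from each other in these genes. Replicate 1 read lower than replicate 2 in 42 of the 45 genes, against 58.8% of all genes, with a median difference of -0.41, against -0.06 over all genes. The genes with replicate 1 at or above replicate 2 were Ndc80, Cdca5 and Nusap1. The 2 arrays were 2-fold or more apart in 3 genes, Top2a, Melk and Kif20a, against 4.34% of all genes. Between mock arrays the median difference of the same genes was -0.17 to -0.06, and 0 genes were 2-fold apart in any of the 3 pairs, beside 0.358% to 1.85% of all genes. Smc2 and Ncapg, which fell most, had differences of -0.07 and -0.08 between replicates 1 and 2.

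**Figure D3:**
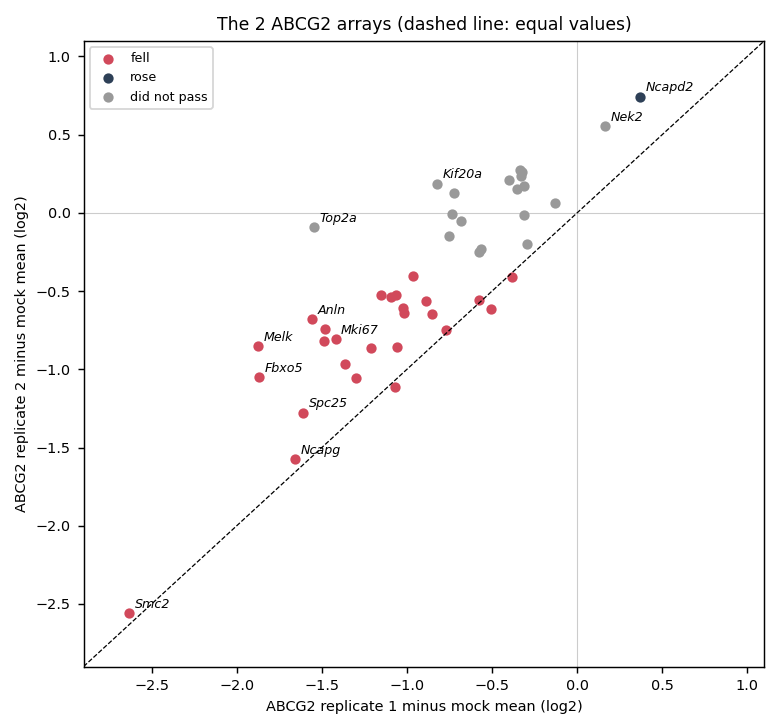
Each of the 45 measured genes by its value on ABCG2 replicate 1 (x axis) and replicate 2 (y axis), both minus the mean of the 3 mock arrays, in log2. Points above the dashed line, 42 of 45, read lower on replicate 1, and colours give the limma call.

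In the EZH2-Mt fractions mitotic transcripts were at or slightly above the mock values. The median difference from mock was 0.40 for GFP-positive and 0.09 for GFP-negative cells, beside 0.06 and 0.04 over all genes. The GFP-positive array lay above all 3 mock arrays in 32 of the 45 genes, against 42.5% of all genes, and the GFP-negative array in 21, against 38.9%. In the limma fit, where each lone array is assumed to vary like the mock and ABCG2 arrays, 2 of the 45 genes rose and 0 fell in GFP-positive cells, beside 3.89% and 2.98% of all genes. In GFP-negative cells 0 rose and 0 fell, beside 0.824% and 1.0%. With array weights 4 rose in GFP-positive cells, beside 9.54% of all genes. Counts this close to the background say nothing about these genes in particular, and sorting and transgene cannot be told apart here.

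The 2 genes that rose in GFP-positive cells were Mki67 (1.18 ± 0.26, adjusted p = 0.0467) and Incenp (1.21 ± 0.27, adjusted p = 0.0498). Both calls were lost without any 1 of the mock arrays. The count of rises also moved when an ABCG2 array was left out, and the share of all genes in those fits was not counted. The Incenp rise rests mainly on 1 of its 3 probe sets, which read 2.91 in GFP-positive and 2.05 in GFP-negative cells, where the others read 0.36 and 0.57 in GFP-positive cells. Incenp was also high in GFP-negative cells (0.90 ± 0.27, adjusted p = 0.141), where it did not pass. Next in size in GFP-positive cells were Cenpf (0.89 ± 0.29), Kif2c (0.79 ± 0.24), Top2a (0.77 ± 0.49) and Ttk (0.74 ± 0.26), of which none passed.

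Set against the GFP-negative array, the GFP-positive array read higher in 39 of the 45 genes, against 51.0% of all genes, with a median of 0.27 against 0.01. This difference was not tested, with 1 array on each side. Of the 45 genes, 0 were 2-fold or more apart in either direction, beside 1.77% of all genes higher and 1.34% lower. Mki67 differed most (0.84), followed by Nusap1 (0.75) and Bub1b (0.70). In the mean of the 2 Nusap1 probe sets the GFP-negative array lay below the mock arrays and the GFP-positive array above them. In GFP-positive cells 1 probe set read 0.97, above its mock values, and the other 0.28, within its mock range of 0 to 0.33. Ndc80 was the largest difference the other way (-0.59).

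**Figure D4:**
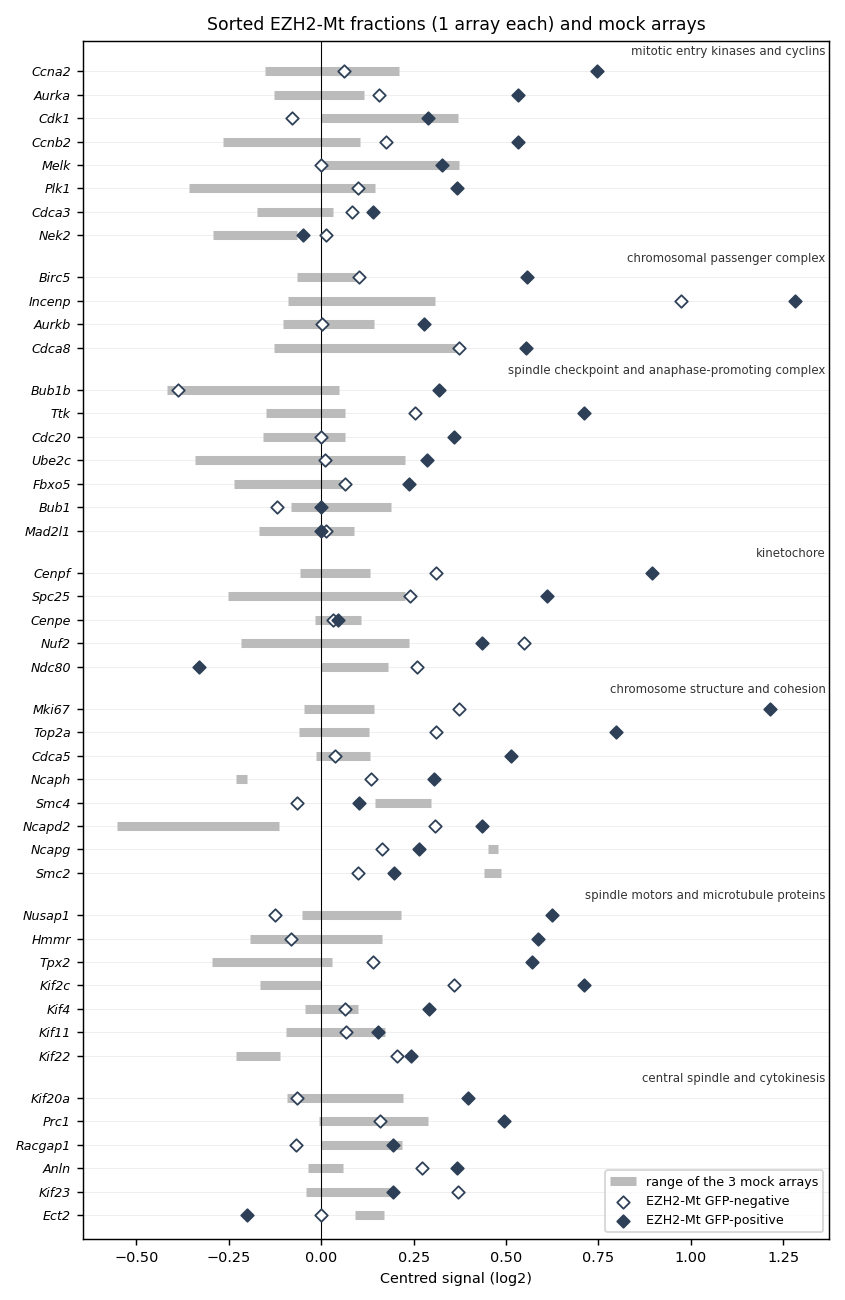
Centred log2 signal of the 45 measured genes in the GFP-negative (open diamonds) and GFP-positive (filled diamonds) EZH2-Mt fractions, 1 array each, with the range of the 3 mock arrays as grey bars. The GFP-positive array is to the right of the GFP-negative array in 39 of 45 rows, and Mki67 and Incenp lie farthest right.

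Technical controls and cell type markers differed between the same arrays. The control transcripts that are added to each hybridization, read by 12 probe sets for bioC, bioD and cre, had medians of -0.03 to 0.06 on mock arrays, -0.21 and -0.33 on ABCG2 arrays, 0.911 on the GFP-negative and 2.14 on the GFP-positive array. The 4 bioB probe sets, of the control added in the lowest amount, had medians of -0.03 to 0 on mock, -3.07 and -3.21 on ABCG2, 0.985 on the GFP-negative and 2.47 on the GFP-positive array. The 3′ minus 5′ difference of the beta-actin control was -0.05 to 0.04 on mock, 0.40 and 0.42 on ABCG2 arrays, 0.14 GFP-negative and 0.31 GFP-positive. That of the Gapdh control was -0.08 to 0.10 on mock and -0.08 and -0.11 on ABCG2 arrays, 0.09 GFP-negative and 0.35 GFP-positive. The part of these in the differences above was not tested.

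Of all genes, 26.2% fell and 35.6% rose in ABCG2 marrow. Among marker genes, 5 of 6 of neutrophil primary granules and promyelocytes fell, 11 of 11 of late neutrophils and 9 of 10 of monocytes, with medians of -5.92, -4.65 and -3.73. The largest falls were those of Mpo (-6.68 ± 0.32) and Ms4a3 (-6.26 ± 0.32) in the first list, Mmp8 (-6.71 ± 0.50) and Clec4d (-6.20 ± 0.45) in the second, and F13a1 (-6.37 ± 0.13) and Cd14 (-6.05 ± 0.34) in the third. B lineage genes rose in 4 of 6 cases, led by Il7r (5.93 ± 0.34) and Spib (4.84 ± 0.44). Progenitor genes rose in 4 of 7, with Flt3 (2.84 ± 0.32) and Egfl7 (2.77 ± 0.17), and fell in 2, Angpt1 (-3.39 ± 0.14) and Lmo2 (-2.11 ± 0.14). The share of progenitor genes that fell (28.6%) was near that of all genes.

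Erythroid genes had 1 rise, Tfrc (1.54 ± 0.13), and 3 falls among 8, the largest Nfe2 (-3.73 ± 0.18) and Car1 (-2.65 ± 0.61). T and NK cell genes had 2 rises, Klrd1 (5.01 ± 0.62) and Cd28 (2.58 ± 0.70), and 1 fall, Nkg7 (-1.53 ± 0.21), among 4. The shares that fell and rose were 37.5% and 12.5% for erythroid genes and 25.0% and 50.0% for T and NK cell genes, beside 26.2% and 35.6% of all genes. In GFP-positive cells the median difference of the 8 erythroid genes from mock was 2.10, against 0.63 in GFP-negative cells. Over all genes these medians were 0.06 and 0.04. For the 10 monocyte genes the list medians were -1.20 in GFP-positive and -1.51 in GFP-negative cells. The GFP-positive and GFP-negative medians were 1.03 and 0.26 for primary granule genes, 1.24 and 0.41 for late neutrophil genes and 1.63 and 0.28 for B lineage genes. They were 0.81 and 2.03 for T and NK cell genes and -0.11 and 0.45 for progenitor genes. The part of cell composition in the mitotic differences was not tested.

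Genes of 6 further lists, of other mitotic genes and of cell cycle transcription factors and DREAM complex genes, were divided between both directions. Of 172 measured, 44 fell (25.6%) and 42 rose (24.4%) in ABCG2 marrow, beside 26.2% and 35.6% of all genes. Their median was -0.04, against 0.15 over all genes. In kinetochore and centromere genes, 7 of 32 fell and 4 rose. The kinetochore scaffold gene Knl1 (-2.11 ± 0.14) and Cenpu (-1.43 ± 0.15) fell, while Cenpw (0.70 ± 0.20) and the CENP-C gene Cenpc1 (0.62 ± 0.19) rose. Remaining checkpoint and anaphase-promoting complex genes rose in 9 of 20 cases with 0 falls, led by the subunit genes Anapc16 (1.45 ± 0.12) and Anapc10 (1.03 ± 0.22).

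Cohesin and condensin II genes fell in 6 of 17 cases with 0 rises, beside 26.2% and 35.6% of all genes. The falls were led by the cohesin loader gene Nipbl (-1.06 ± 0.16) and the cohesin acetyltransferase gene Esco2 (-1.04 ± 0.21). Further spindle, centrosome and cytokinesis genes split into 15 falls and 16 rises among 50. Depdc1b (-1.78 ± 0.22) and the dynein regulator gene Ndel1 (-1.74 ± 0.25) fell most, and the kinesin gene Kif18a (1.86 ± 0.27) and the augmin gene Haus1 (1.15 ± 0.17) rose most. Mitotic kinases, phosphatases and regulators had 8 falls and 8 rises among 32. The lamin B1 gene Lmnb1 (-1.82 ± 0.21) and the histone kinase gene Haspin (-1.67 ± 0.40) fell, and Bora (1.11 ± 0.20), a cofactor of Plk1 activation, and Rcc1 (0.89 ± 0.22), the exchange factor of Ran, rose.

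Regulators of the cell cycle were on both sides. Cell cycle transcription factors and DREAM complex genes, counted in the 172 above, had 8 falls and 5 rises among 21. Over all genes 26.2% fell and 35.6% rose. The E2F factor genes E2f2 (-2.40 ± 0.16) and E2f8 (-1.94 ± 0.23) fell, and E2f5 (1.98 ± 0.30) and the MuvB subunit gene Lin9 (0.93 ± 0.17) rose. G1 cyclins, kinases and inhibitors rose in 7 of 14 cases and fell in 3. The D-type cyclin genes Ccnd2 (2.95 ± 0.18) and Ccnd1 (1.98 ± 0.28) rose, and the CDK inhibitor gene Cdkn2d (-1.91 ± 0.19) and the cyclin E2 gene Ccne2 (-1.30 ± 0.19) fell.

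DNA replication genes act one step earlier in the cycle. Of 58 measured, 6 fell (10.3%) and 19 rose (32.8%), beside 26.2% and 35.6% of all genes, and their median of 0.23 was near the 0.15 of all genes. Their median on the arrays was 0 and 0.31 for ABCG2 replicates 1 and 2 and -0.10 to -0.05 for mock, where the mitotic genes had medians of -0.84 and -0.48 and -0.02 to 0.10. The origin recognition gene Orc1 (1.63 ± 0.45) and the polymerase alpha subunit gene Pola2 (1.29 ± 0.17) rose most, and the histone chaperone gene Asf1b (-1.47 ± 0.18) and the helicase gene Cdc45 (-1.02 ± 0.17) fell most. The ABCG2 arrays differed widely in Orc1, at 1.99 and 0.27, and were closer in Pola2, at 0.58 and 0.98. The difference between the mitotic and the replication genes was not tested.

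**Figure D5:**
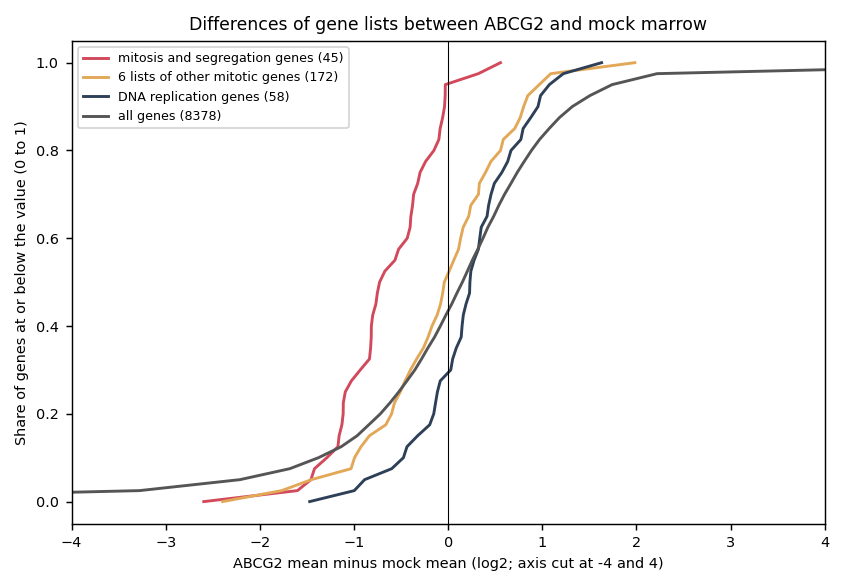
Cumulative distribution of the ABCG2 minus mock difference (log2) for 45 mitotic genes, 172 genes of 6 further lists, 58 DNA replication genes and all 8378 genes. The 172, labelled other mitotic genes, include cell cycle transcription factors and DREAM complex genes. The line of the mitotic genes lies left of 0 for 43 of 45 genes, while the medians of the other lines are -0.04, 0.23 and 0.15.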

How the data were processed

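The authors' deposited values are log2 signals (base assumed, since it is not stated) of Mouse430_2 probe sets; per the file headers they are normalized, and probe sets were filtered to raw signals between 3 and 120534.25 that were Present or Marginal in 100% of arrays. The submitters' processing notes list MAS5, without a version. The sources used here give no scaling between arrays. The value table equals the single-array files (largest difference 0).

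From these values, 54 control probe sets were set apart, 14229 probe sets with 1 symbol in the platform annotation were averaged per gene (8378 genes; 3624 with several probe sets), and 14203 gene IDs matched GRCm38.p6, which changed 0 symbols. limma 3.58.1 in R 4.3.3 (lmFit, eBayes, two-sided, Benjamini-Hochberg over all genes, threshold 0.05) was fitted to 4 groups over 7 arrays, with 3 residual degrees of freedom from the mock and ABCG2 arrays. Values after ± are standard errors. The fit was also run on simulated data in which few genes were shifted. That run checked the code only and does not bear on the calls here, where most genes passed.

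The members and lists were chosen with earlier results of these data known. Per-array values are given for up to 4 called genes per role with the largest differences, the smallest per role, and the 3 largest between GFP fractions; per list, the 2 largest calls each way are named. Other genes were named after their values were seen. Alternatives were quantile normalization, array medians at 0, array weights, robust eBayes, the probe set of largest range, the replicate block, and leaving out each array.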

Additional observations from a re-analysis of the deposited data

Results flagged for a closer look

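Control transcripts added to each hybridization, which no comparison uses, read higher on the EZH2-Mt arrays than on any mock array. The median of the bioB probe sets was 0.985 on the GFP-negative and 2.47 on the GFP-positive array, and that of the bioC, bioD and cre probe sets was 0.911 and 2.14.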

How the results depend on the processing

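With quantile normalization 10 genes fell in ABCG2 marrow and 0 rose, with a median of -0.48. The count of rises, 1, was 0 with array medians at 0, with array weights and with the replicate block, and 0 to 2 when 1 array was left out, where falls numbered 20 to 31 and the median was -0.85 to -0.53. Of the 26 falls, 10 kept their call in all 11 settings, and 25 kept a negative difference. Shares of all genes were counted only for the main fit, for quantile normalization and, in GFP-positive cells, for array weights. In GFP-positive cells rises against mock, 2 as reported, numbered 1 with quantile normalization, 4 with array weights and 0 to 6 when 1 array was left out, and falls numbered 2 with the probe set of largest range, where 2 genes also differed 2-fold between the fractions. Signs turned for Hmmr with that probe set (0.70). Of the 45 genes, 43 had a negative difference as reported, 38 with quantile normalization and 34 without ABCG2 replicate 1. Of the genes given with values on all 7 arrays that had not passed, signs turned for Ncaph (0.19), Kif22 (0.10) and Bub1b (0.014) with quantile normalization, Cdc20 with the replicate block (0.044), and, when 1 array was left out, Plk1 (-0.72 to 0.12), Cdc20 (-0.32 to 0.26), Ncaph (-0.129 to 0.063), Kif22 (-0.34 to 0.28) and Bub1b (-0.31 to 0.17). The cause was not tested.

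With the replicate block 22 genes fell, all among the 26, and Incenp, Cdca5, Hmmr and Nusap1 were lost. Arrays with the same number shared little (r of deviations over genes 0.067 and -0.060), so the numbers are not taken as pairs. Centred values show no signal over background, so what low signal limits cannot be read from them.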
